A study of Homo sapiens with 4 samples.

Results

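The olfactory receptor (OR) genes of human chromosome 11 were examined for CUT&RUN peaks of tagged BRG1 proteins in SW-13 cells. The set was every protein-coding gene of the chromosome with a symbol made of OR, a number, letters and a number, such as OR51E2, in the GENCODE release 44 annotation mapped to GRCh37 (hg19). It held 171 of 20162 protein-coding genes of the genome. The body of each gene was extended by 5 kb on each side, and the resulting stretch is called its window. Another 228 OR genes lie on 17 other chromosomes, and they serve as one of the sets placed beside the 171.

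CUT&RUN maps a chromatin protein by tethering a nuclease to it through an antibody, here an antibody against the V5 tag, and sequencing the DNA that is cut free. SW-13 is an adrenocortical carcinoma line in which the SWI/SNF ATPases BRG1 and BRM are silenced. Stable lines, each grown from an individual clone, carried a doxycycline-inducible, V5-tagged BRG1 that was either wild type (iBRG1) or deleted for the helicase/SANT-associated (HSA) domain (i∆HSA), and all 4 samples (2 per construct) had received doxycycline for 24 h. The comparison asks whether this domain affects where BRG1 is found on chromatin, here across genes of the sense of smell. The deposited files hold 1 peak list per construct, with 24212 iBRG1 peaks and 25371 i∆HSA peaks, and no value per replicate. The replicate error of every value below is therefore unknown, the read depth is unknown, and the intervals given are 95% intervals for counting error only (Wilson for shares of genes or peaks, exact Poisson for peaks per Mb). They treat genes as independent, although neighboring OR genes can share a peak, so they are too narrow. No test between the constructs could be made, and untreated cells were not analysed here.

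OR genes encode the G protein-coupled receptors that detect odorants, and they form the largest gene family of the human genome. Each olfactory sensory neuron expresses 1 allele of a single OR gene. In such neurons the choice depends on the transcription factors LHX2 and EBF and on enhancers that gather from several chromosomes, while the OR genes that are not chosen are packed into heterochromatin that carries the histone marks H3K9me3 and H4K20me3. Outside the nose most OR genes are silent. Class I receptors, which resemble those of fish, are encoded in humans in 1 cluster around the beta-globin genes on chromosome 11, and class II receptors make up the rest of the family. Some OR genes are active elsewhere in the body. OR51E1 and OR51E2 are known from the prostate, and OR51E2 responds to short-chain fatty acids.

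The sequences that follow are the 201 bases around the midpoints of the peaks to which the results return most often, read from the plus strand of GRCh37, 5′ to 3′. Capitals mark a match to 1 of the transcription factor patterns searched, which are spelled out with the motif results. The first lies beside OR4D6, in the highest-scoring iBRG1 peak of any OR window, and holds TGAGTCA, an AP-1 pattern (chr11:59223811-59224011). The second lies in the coding exon of OR51E1 (chr11:4674014-4674214). The next pair comes from the only place where peaks of the lists overlapped in an OR window, downstream of OR10S1, with the iBRG1 midpoint (chr11:123844769-123844969) to the right of the i∆HSA midpoint (chr11:123843973-123844173). The last is the i∆HSA peak downstream of OR8D1 (chr11:124167175-124167375), where the EBF pattern matches on both strands.
OR4D6, iBRG1: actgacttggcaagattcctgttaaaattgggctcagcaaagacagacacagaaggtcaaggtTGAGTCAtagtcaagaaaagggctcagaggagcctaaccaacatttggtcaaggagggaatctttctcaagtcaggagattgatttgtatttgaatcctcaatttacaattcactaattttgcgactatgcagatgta
OR51E1, iBRG1: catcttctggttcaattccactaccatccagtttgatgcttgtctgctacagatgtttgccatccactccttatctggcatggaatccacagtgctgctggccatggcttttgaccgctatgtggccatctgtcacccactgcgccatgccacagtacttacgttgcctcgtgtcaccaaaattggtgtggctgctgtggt
OR10S1, iBRG1: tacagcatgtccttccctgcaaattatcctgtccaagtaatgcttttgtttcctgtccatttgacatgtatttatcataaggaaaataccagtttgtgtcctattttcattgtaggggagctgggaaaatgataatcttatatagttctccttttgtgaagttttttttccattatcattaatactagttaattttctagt
OR10S1, i∆HSA: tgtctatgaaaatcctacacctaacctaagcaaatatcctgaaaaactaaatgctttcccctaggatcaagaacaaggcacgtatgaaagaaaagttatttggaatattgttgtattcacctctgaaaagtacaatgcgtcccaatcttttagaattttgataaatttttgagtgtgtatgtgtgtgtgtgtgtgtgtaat
OR8D1, i∆HSA: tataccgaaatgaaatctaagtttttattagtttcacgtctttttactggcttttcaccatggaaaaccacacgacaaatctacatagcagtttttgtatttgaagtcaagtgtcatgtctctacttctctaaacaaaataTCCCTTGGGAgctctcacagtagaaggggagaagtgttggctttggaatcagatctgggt

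The 171 genes were short and AT-rich. Their lengths ran from 912 to 202209 bp with a median of 1074 bp, and 88 were under 1100 bp, since the receptor is encoded by a single exon. Only OR51B5 (202209 bp) and OR9Q1 (157736 bp) exceeded 100 kb. The GC content of the windows had a median of 37.5% and a range of 32.1 to 44.7%. The set comprised 55 class I and 116 class II genes in 11 families. Windows of 66 of the genes overlapped the window of another OR gene, and 132 of the 171 windows held no protein-coding gene other than OR genes.

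Few of these genes had a peak of either protein. An iBRG1 peak lay in the window of 23 of 171 OR genes, 13.5% (9.13 to 19.4%), and an i∆HSA peak in the window of 7, 4.09% (2.00 to 8.21%). Of these, 2 genes, OR10S1 and OR8D1, had a peak of both lists, 1.17% (0.321 to 4.16%), 21 had an iBRG1 peak only, 5 had an i∆HSA peak only, and 143 had neither. OR51B5 had 3 iBRG1 peaks and the other 22 genes had 1 each. Against the background of all protein-coding genes, where 44.0% had an iBRG1 peak, 49.1% an i∆HSA peak and 30.0% both, the OR shares were lower in each list. Because OR genes are short, the closer background was the 385 other protein-coding genes of chromosome 11 with a length of 930 to 12578 bp, the 5th to 95th percentile of OR gene lengths. Among these like-length genes 29.6% had an iBRG1 peak (25.3 to 34.4%), 28.3% an i∆HSA peak (24.0 to 33.0%) and 12.5% both. The intervals of OR and like-length genes did not overlap in either list. The like-length genes were still longer, with a median of 6028 bp, and more GC-rich, with a median window GC of 51%.

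**Figure D1:**
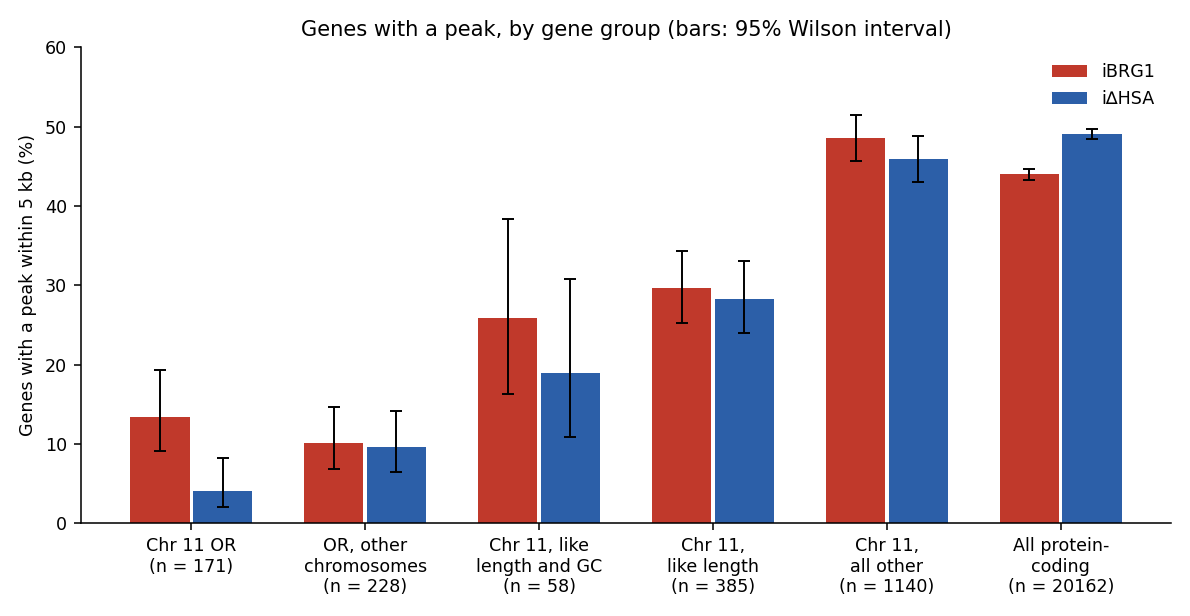
Share of genes with a peak in the gene body or 5 kb on each side, in percent, for 6 gene groups, with iBRG1 in red, i∆HSA in blue and 95% Wilson intervals as error bars. The chromosome 11 OR genes stand at 13.5% and 4.09%, OR genes of other chromosomes at 10.1% and 9.65%, and like-length genes of chromosome 11 at 29.6% and 28.3%.

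A smaller group was held to like GC content as well. The 58 like-length genes whose window GC also fell within the 5th to 95th percentile of the OR windows (33.4 to 41.4%) had an iBRG1 peak in 15 cases, 25.9% (16.4 to 38.4%), and an i∆HSA peak in 11, 19.0% (10.9 to 30.9%). For iBRG1 this interval overlapped that of the OR genes, and for i∆HSA it did not. OR genes of other chromosomes gave 23 of 228 genes with an iBRG1 peak, 10.1% (6.82 to 14.7%), close to the chromosome 11 value, and 22 of 228 with an i∆HSA peak, 9.65% (6.46 to 14.2%). On chromosome 11 the i∆HSA share was thus below the iBRG1 share, whereas OR genes elsewhere had nearly equal shares. The direction on chromosome 11 was not particular to OR genes. Its other protein-coding genes had an iBRG1 peak in 48.6% and an i∆HSA peak in 45.9%, whereas all protein-coding genes had 44.0% and 49.1%. Whether the contrast between OR genes of chromosome 11 and those elsewhere exceeds the spread between replicates could not be tested.

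Peak density takes the length of the windows into account. The windows of the 171 OR genes merged to 2.43 Mb and held 21 iBRG1 peaks, 8.64 per Mb (5.35 to 13.2), and 7 i∆HSA peaks, 2.88 per Mb (1.16 to 5.93). Merged windows of like-length genes held 18.7 iBRG1 peaks per Mb (15.2 to 22.8) and 17.9 i∆HSA peaks per Mb (14.5 to 22.0). Those of like length and GC held 15.4 (8.60 to 25.4) and 11.3 (5.63 to 20.2), and both intervals overlapped those of the OR windows, unlike the i∆HSA shares of genes. These genes were longer than the OR genes, with a median of 8002 bp. Windows of OR genes on other chromosomes held 6.76 (4.33 to 10.1) and 6.198 (3.88 to 9.38) peaks per Mb. Across the whole of chromosome 11 there were 10.2 and 7.89 peaks per Mb, and across all chromosomes 8.47 and 8.875. The iBRG1 density of OR windows was therefore near that of the chromosome at large, which is mostly intergenic and intronic, and the i∆HSA density was below it.

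The distance to the nearest peak also differed between the lists. The nearest iBRG1 peak lay a median of 43.5 kb from an OR gene (quartiles 15.8 and 80.2 kb, farthest 239.1 kb), and the nearest i∆HSA peak a median of 190.6 kb (quartiles 49.3 and 431.4 kb, farthest 893 kb). For like-length genes the medians were 16.9 and 18.7 kb. For the 58 of them with like GC content they were 22.4 and 56.01 kb (upper quartiles 61.2 and 152.4 kb), so the nearest i∆HSA peak was the farther one in this group too. Within 100 kb, 81.9% of OR genes had an iBRG1 peak and 33.9% had an i∆HSA peak, against 93.0% and 84.4% of like-length genes. Within 200 kb the iBRG1 shares of OR and like-length genes met at 98.8% and 98.4%, while the i∆HSA shares stood at 53.2% and 95.6%. OR genes of other chromosomes had medians of 58.2 kb for iBRG1 and 58.1 kb for i∆HSA. At the 5 kb limit the nearest genes inside were OR8J2 for iBRG1 (4895 bp) and OR8D1 for i∆HSA (4390 bp), and the nearest outside were OR5B12 (5535 bp) and OR8B4 (7209 bp).

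**Figure D2:**
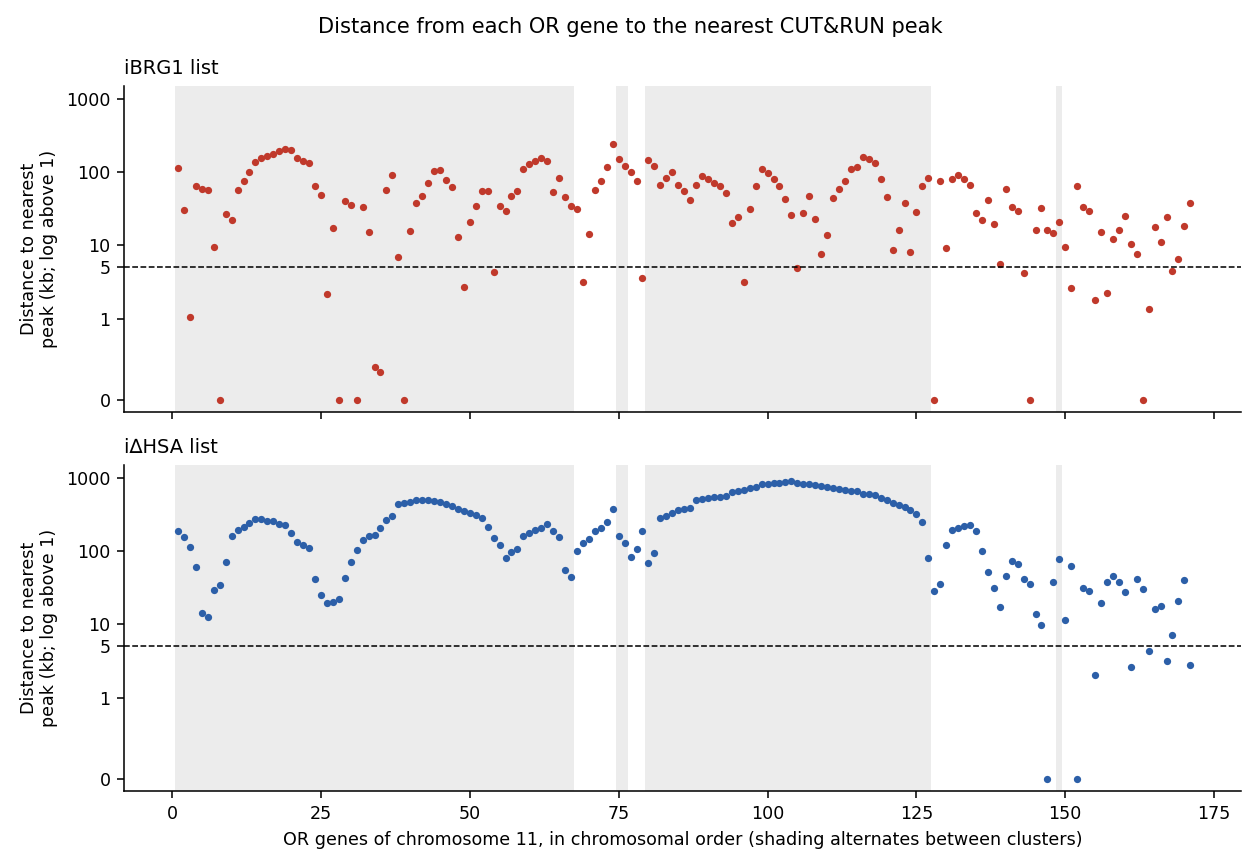
Distance in kb from each of the 171 OR genes, in chromosomal order along the horizontal axis, to the nearest peak of the iBRG1 list (top, red) and the i∆HSA list (bottom, blue), on an axis that is logarithmic above 1 kb, with the 5 kb limit dashed and shading that alternates between clusters. All 7 genes below the line in the i∆HSA panel come after the OR4A16 to OR5AK2 cluster, whose long arch reaches 893 kb.

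**Figure D3:**
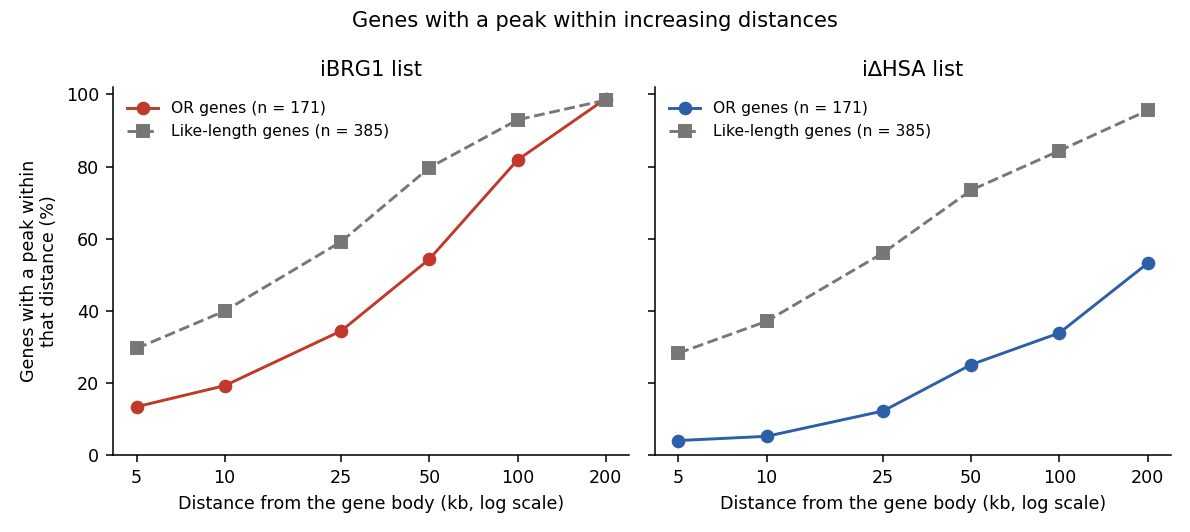
Percent of genes with a peak within 5, 10, 25, 50, 100 and 200 kb of the gene body (log axis), for the 171 OR genes (colored circles) and 385 like-length genes of chromosome 11 (gray squares). The iBRG1 curves meet at 200 kb, and the i∆HSA curves end at 53.2% and 95.6%.

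The OR genes with peaks were spread unevenly over the chromosome. Joining neighboring OR genes whose starts were less than 1 Mb apart gave 8 clusters, 4 of which held 158 of the genes. In the largest, from OR52B4 to OR10A3 (chr11:4388493-7963255, 67 genes, all 55 class I genes among them), 10 genes had an iBRG1 peak and 0 had an i∆HSA peak. In the class II cluster from OR4A16 to OR5AK2 (chr11:55110677-56757318, 48 genes), 2 genes had an iBRG1 peak and 0 an i∆HSA peak. From OR9Q1 to OR10V1 (chr11:57791353-59481318, 21 genes), the numbers were 3 and 1. From OR6X1 to OR8A1 (chr11:123624288-124452838, 22 genes), 6 genes had an iBRG1 peak and 6 an i∆HSA peak. The 3 clusters of 2 to 7 genes on the centromere side had an iBRG1 peak at OR4X2 and at OR4C46 and no i∆HSA peak, and OR2AT4, which stands alone and encodes a receptor for synthetic sandalwood odorants that is found in keratinocytes, had none (nearest peaks at 20851 and 78755 bp).

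The OR6X1 to OR8A1 cluster thus held 6 of the 7 OR genes with an i∆HSA peak. Both lists had the same density in its windows, 20.9 peaks per Mb. In the windows of the OR52B4 to OR10A3 cluster the iBRG1 density was 9.07 per Mb and i∆HSA had no peak in 0.992 Mb. Without the 22 genes of the OR6X1 to OR8A1 cluster, 17 of 149 OR genes (11.4%) had an iBRG1 peak and 1 of 149 (0.671%) had an i∆HSA peak, so the i∆HSA share rests on that cluster. This alternative was chosen after seeing the data.

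Split by class, the iBRG1 list had a peak at 10 of 55 class I genes and 13 of 116 class II genes, and the i∆HSA list at 0 of 55 and 7 of 116. Beside these stand 29.6% and 28.3% of like-length genes and 44.0% and 49.1% of all protein-coding genes. The closest i∆HSA peak to any class I gene was 12.8 kb away. Class medians of the distance to the nearest peak were similar within each list, 48.1 and 41.1 kb for iBRG1 and 195.0 and 187.7 kb for i∆HSA, for class I and class II respectively. Among class I families, OR51 had 5 of 22 genes with an iBRG1 peak, OR52 had 3 of 27 and OR56 had 2 of 6. Genes that share a peak are counted separately here, so family counts are not independent. The 10 class I genes rest on 9 peaks, and OR51B5 shares peaks with OR51M1, OR51I2 and OR52D1. Among class II families, OR8 had 4 of 23 genes with an iBRG1 peak and 4 of 23 with an i∆HSA peak, OR10 had 3 and 2 of 16, OR4 had 3 and 1 of 25, and OR5, the largest with 35 genes, had 1 and 0. The 5 genes of OR2 and the 2 of OR1 had no peak.

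The peak names of each list end in a running number that rises along every chromosome and exceeds the number of listed peaks, reaching 340229 for iBRG1 and 286854 for i∆HSA. The authors do not state its meaning. If it counts calls made before filtering, its steps give a density of calls that needs no score threshold. The numbers were read between the listed peaks that flank each region, so the stretch read is somewhat longer than the region. Summed over the 4 clusters of at least 10 OR genes, the iBRG1 numbers advanced by 134.3 per Mb, against 146.6 per Mb over the rest of chromosome 11, and 5.65% of them were in the list, against 7.06%. The i∆HSA numbers advanced by 51.9 per Mb in those clusters, against 85.2 per Mb over the rest, and 6.74% were listed, against 9.64%. Over all chromosomes the iBRG1 numbers advanced by 119 per Mb and the i∆HSA numbers by 100.3 per Mb. The listed share differed between clusters, with 12.5% of the i∆HSA numbers from OR52B4 to OR10A3 and 0% from OR4A16 to OR5AK2.

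By cluster, the i∆HSA numbers ranged more widely than the iBRG1 numbers. They advanced by 23.1 per Mb from OR52B4 to OR10A3, 30.1 from OR4A16 to OR5AK2, 81.9 from OR9Q1 to OR10V1 and 142.4 from OR6X1 to OR8A1. The iBRG1 numbers advanced by 104.8, 144.5, 166.7 and 171.4 per Mb in the same order. In the 2 Mb to the left and right of the OR52B4 to OR10A3 cluster the i∆HSA numbers advanced by 50.4 and 113.6 per Mb, both above the cluster, and beside the OR6X1 to OR8A1 cluster by 98.6 and 85.5 per Mb, both below it. The sides of the other clusters went both ways. They gave 16.7 and 59.7 per Mb beside OR4A16 to OR5AK2 and 56.2 and 90.0 per Mb beside OR9Q1 to OR10V1. The right side of OR4A16 to OR5AK2 and the left side of OR9Q1 to OR10V1 each reach into the other cluster. The left side of OR4A16 to OR5AK2 reaches into the centromere, over a stretch of 5.51 Mb. No contrast of these clusters with their surroundings can be read from such sides. The iBRG1 numbers beside the OR52B4 to OR10A3 cluster, 115.7 and 134.1 per Mb, were also both above it.

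**Figure D4:**
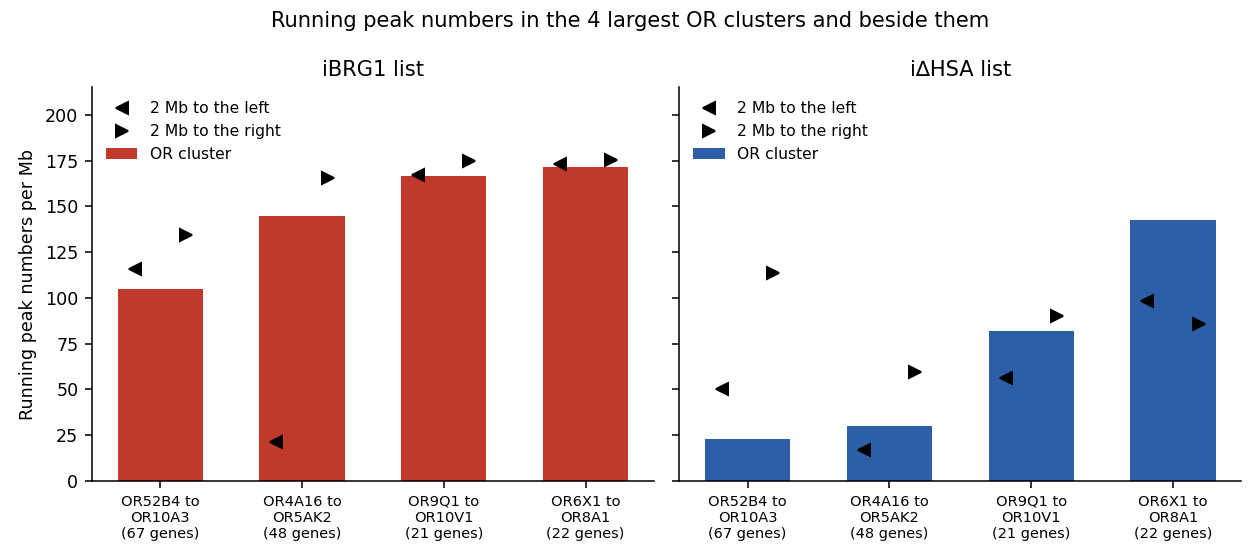
Running peak numbers per Mb in the 4 OR clusters of at least 10 genes (bars) and in the 2 Mb to either side (triangles), for iBRG1 (left, red) and i∆HSA (right, blue). The i∆HSA bars go from 23.1 to 142.4 per Mb and the iBRG1 bars from 104.8 to 171.4 per Mb. The left side of the OR4A16 to OR5AK2 cluster reaches into the centromere. Its right side reaches into the OR9Q1 to OR10V1 cluster, whose left side reaches back into it.

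The OR4A16 to OR5AK2 cluster fell whole within a stretch without any listed i∆HSA peak. It ran for 1.80 Mb (chr11:55041394-56838018), the fifth longest such stretch on the chromosome, and contained all 48 OR genes of the cluster. The iBRG1 list had 9 peaks inside it, 2 of them in OR windows, at OR10AG1 (score 3) and OR8J2 (score 2). The i∆HSA numbers still advanced by 54 across that stretch, and 0 of those 54 were listed.

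Among the class I genes, the iBRG1 peaks were low in the authors' score, a whole number given for each peak on a scale that is not stated. OR51E1 had a peak over its coding exon (chr11:4673752-4674477, score 1), 9464 bp after the annotated start, and among the OR-window peaks only that of OR56A5 exceeded its GC content of 50.3%. Its neighbor OR51E2 (chr11:4701401-4719084, minus strand) had no peak, with the nearest iBRG1 peak at 26924 bp and the nearest i∆HSA peak at 71764 bp. The nearest i∆HSA peak to OR51E1 was at 35013 bp. Of this pair OR51E1 alone had a peak, in the iBRG1 list alone.

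Next to the beta-globin genes, OR51V1 had an iBRG1 peak upstream (chr11:5224070-5226318, score 1) whose midpoint was 25431 bp from the start of HBB. On the other side, 3 peaks lay in the long annotated body of OR51B5. The first (chr11:5409627-5410355, score 0) also fell in the body of OR51M1, the second (chr11:5478155-5478520, score 1) was downstream of OR51I2, and the third (chr11:5508875-5509577, score 2) had its midpoint 689 bp before the start of OR52D1. These positions are also inside the annotated bodies of HBG2 and HBE1, whose models in this release include transcripts that read through the OR genes. A peak there cannot be assigned to 1 gene.

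Only OR56B1 among the class I genes had its annotated start under a peak. This iBRG1 peak (chr11:5755657-5759932, score 3) was the widest in any OR window at 4276 bp, its midpoint was 116 bp after the OR56B1 start, and it also covered the end of TRIM22 and part of TRIM5, antiviral genes that are set among the receptors. The remaining class I genes with an iBRG1 peak were OR52K1 (upstream, score 1), OR56A5 (downstream, score 2, 50.9% GC) and OR52B2 (downstream, score 1).

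All iBRG1 peaks of OR windows with a score above 3 were at class II genes. The highest score of the 21 was 6, at a peak (chr11:59223003-59224820) that covered the start and part of the coding exon of OR4D6, with its midpoint 523 bp before the start. It also lay 4150 bp beyond the end of OR5A1, whose receptor detects beta-ionone, the violet odorant. A score of 5 was reached at 3 places, in the body of OR9Q1 (chr11:57874024-57874918), downstream of OR10S1 (chr11:123844166-123845573) and in the body of OR8G5 (chr11:124131952-124134158). A score of 3 was found upstream of OR10G4 (chr11:123881071-123881479), a receptor for vanillin and guaiacol, downstream of OR8D1 and downstream of OR10AG1. OR6M1, OR8B4, OR4X2 and OR4C46 had peaks with a score of 1.

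The i∆HSA peaks in OR windows were 7 in number. The highest score was 19, downstream of OR8A1, a gene whose nearest iBRG1 peak was 38315 bp from its body. A score of 18 was found downstream of OR10S1 (chr11:123842818-123845329). Scores of 4 were found upstream of OR10D3 (chr11:124050454-124051393), downstream of OR8D1 (chr11:124166213-124168337) and upstream of OR8B3 (chr11:124272112-124272993). The peak over the coding exon of OR8D4 (chr11:123777385-123778427) had a score of 2, and that over an untranslated exon of OR4D9 (chr11:59287497-59288569) a score of 1. OR4D9 was the only gene of the 7 outside the OR6X1 to OR8A1 cluster. Scores of the 2 lists were not compared with each other, because their scales may differ.

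Only OR10S1 and OR8D1 had peaks of both proteins. At OR10S1 the peaks overlapped, 1795 bp from the gene for iBRG1 and 2039 bp for i∆HSA. At OR8D1 the peaks were separate, 1364 bp from the gene for iBRG1 and 4390 bp for i∆HSA, both downstream. Therefore 1 of 21 iBRG1 peaks in OR windows was overlapped by an i∆HSA peak, 4.76% (0.846 to 22.7%), and 1 of 7 i∆HSA peaks by an iBRG1 peak, 14.3% (2.57 to 51.3%). Over the whole lists the shares were 20.5% and 19.6%, and in like-length windows 23.7% and 22.6%. The iBRG1 interval included the whole-list share and ended just below that of like-length windows, and the i∆HSA interval included both. The single overlap did not survive a requirement that each peak cover at least 50% of the other.

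In score, no iBRG1 peak of an OR window on chromosome 11 exceeded 6. The median iBRG1 score was 2 (range 0 to 6), against 3 in like-length windows (range 0 to 52) and 2 over all iBRG1 peaks. A highest score among 21 peaks is not measured like one among the 97 of like-length windows. Windows of OR genes on other chromosomes also had a median iBRG1 score of 2, with a range of 1 to 48. There, 10 of 24 iBRG1 peaks (41.7%) scored under 2. Scores under 2 were found for 10 of 21, 47.6% (28.3 to 67.6%), against 19.6% in like-length windows and 28.6% over all peaks, and scores of 5 or more for 4 of 21, 19.0% (7.67 to 40.0%), against 32.0% and 27.2%. The median i∆HSA score was 4 (range 1 to 19), equal to the medians in like-length windows and over all peaks. Windows of OR genes on other chromosomes had a median i∆HSA score of 3 (range 2 to 94). Of the 7 i∆HSA peaks, 2 scored 5 or more, 28.6% (8.22 to 64.1%), against 40.9% and 41.2%. A score under 2 was found for 1 of the 7, 14.3% (2.57 to 51.3%), against 6.45% and 3.28%. The intervals of the OR peaks included the values of all peaks in each case, only just so for iBRG1 scores under 2. That interval did not include the 19.6% of like-length windows, whereas the other intervals included the like-length values.

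The OR-window peaks were narrow, and more AT-rich than peaks in like-length windows. Their median width was 729 bp for iBRG1 and 1043 bp for i∆HSA, against 1514 and 1717 bp in like-length windows and 1321 and 1318 bp over all peaks. Their median GC content was 36.4% for iBRG1 and 32.0% for i∆HSA, against 50.6% and 48.7% in like-length windows. Over all peaks the medians were 38.6% and 38.2%, so the iBRG1 value was near that of its list at large. Peaks in like-length windows of like GC had median GC contents of 36.8% and 39.0% and median widths of 1535 and 1658 bp. Peaks of OR genes on other chromosomes resembled those of chromosome 11, with median GC contents of 35.7% and 32.8% and median widths of 849.5 and 674 bp. No OR-window peak had a GC content under 25%, a range that held 0.888% of all iBRG1 peaks and 4.64% of all i∆HSA peaks. Nothing about so few OR-window peaks can be read from this.

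**Figure D5:**
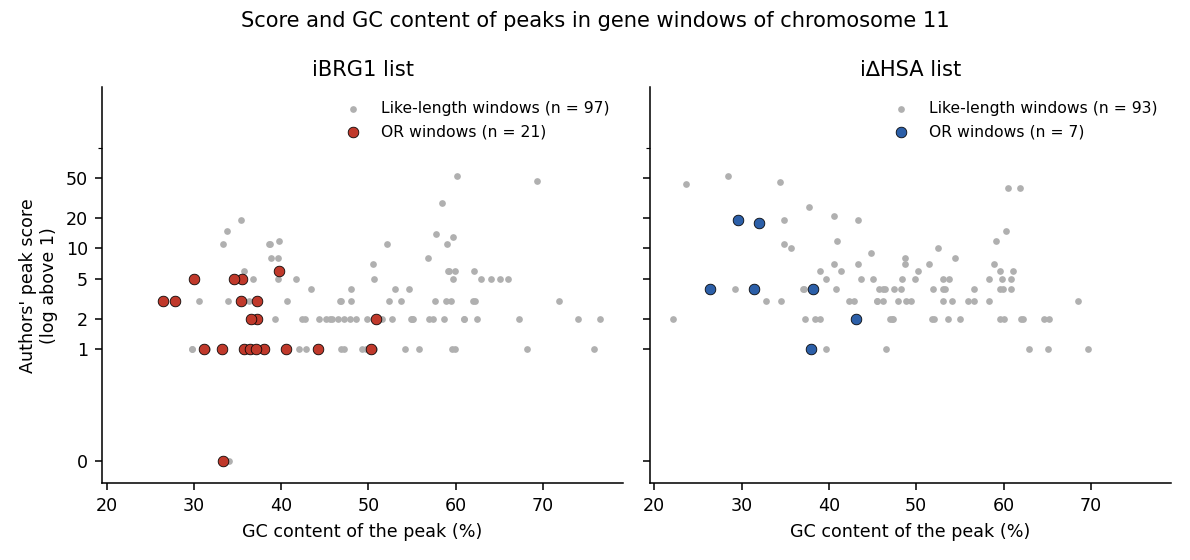
Authors' score (log scale above 1) against GC content in percent for each peak in OR windows (large colored points, 21 iBRG1 and 7 i∆HSA) and in like-length windows of chromosome 11 (small gray points, 97 and 93). OR-window peaks occupy the left of each panel, with iBRG1 scores of 0 to 6 and i∆HSA scores of 1 to 19.

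Most of the peaks lay beside the genes and not over their starts. Gene bodies made up 0.962 Mb of the 2.43 Mb of merged windows, and starts are single positions. The same shares were not computed for other genes, so the positions are a description and no trait of OR genes. Of the 21 iBRG1 peaks, 8 overlapped an OR gene body, 5 were upstream only and 8 downstream only, and 2 covered an annotated start (OR56B1 and OR4D6). Midpoints within 1 kb of an OR start were found at 3, those of OR52D1, OR56B1 and OR4D6. Of the 7 i∆HSA peaks, 2 overlapped a gene body, 2 were upstream and 3 downstream, and 0 covered a start. Coding exons were overlapped at OR51E1, OR56B1 and OR4D6 by iBRG1 peaks and at OR8D4 by an i∆HSA peak. No OR-window peak of either list had its midpoint within 5 kb of the start of a protein-coding gene that is not an OR gene. The median distance to such a start was 88.5 kb for iBRG1 and 87.7 kb for i∆HSA. As 132 of the 171 windows held no such gene, few such starts were near, and no avoidance of them can be read from this.

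The 250 bases before the OR4D6 start, which the iBRG1 peak covers (chr11:59224184-59224433, plus strand), are shown because this was the higher-scoring of the 2 starts under a peak. None of the patterns searched was found in them, and the AP-1 match of that peak lies farther upstream.
OR4D6 upstream: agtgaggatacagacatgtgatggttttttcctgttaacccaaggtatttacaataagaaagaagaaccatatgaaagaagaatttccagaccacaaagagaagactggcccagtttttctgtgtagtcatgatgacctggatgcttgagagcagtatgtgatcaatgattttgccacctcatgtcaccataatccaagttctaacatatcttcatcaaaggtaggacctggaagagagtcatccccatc

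Pattern matches were counted in the 201 bases around each midpoint, on both strands. They were TGACTCA or TGAGTCA for AP-1, CATTCC for TEAD, TCCCNNGGG for EBF, TAATTA for the LHX2 homeodomain and CCACNAGGG for CTCF, and a match is a description of the sequence and not of binding. Some sequences hold more than 1 pattern, and OR52K1 and OR8J2 each had an AP-1 and a TEAD match. AP-1 matches were in 4 of 21 iBRG1 peaks (19.0%), at OR52K1, in OR51B5 and OR51M1, at OR8J2 and at OR4D6, against 8.89% over all iBRG1 peaks. TEAD matches were in 3 of 21 (14.3% against 12.2%) and LHX2 matches in 3 of 21 (14.3% against 9.49%), the latter at OR51V1, OR4C46 and OR8B4. The EBF and CTCF patterns were in 0 of 21, against 1.64% and 0.471%.

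In the i∆HSA list, AP-1 was in 0 of 7 OR-window peaks (6.18% over all peaks) and CTCF in 0 of 7 (0.461%). TEAD was in 1 of 7, at OR10D3 (10.2% over all peaks), and EBF in 1 of 7, at OR8D1 (1.56%). Each of these is a single peak.

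The LHX2 pattern was found in a larger share of OR promoters than of promoters at large. In the 250 bases before and 50 after the annotated start, TAATTA was found in 35 of 171 chromosome 11 OR promoters, 20.5% (15.1 to 27.1%), and in 21.9% of the OR promoters of other chromosomes, against 1.82% of like-length promoters and 3.81% of all. OR promoters are AT-rich, with a median GC of 37.7% against 60.3% over all promoters. Among promoters under 45% GC, 32 of 144 OR promoters held the pattern, 22.2% (16.2 to 29.7%). All promoters in that range, OR promoters included, held it in 14.1% (12.8 to 15.4%), and like-length promoters in 0 of 52. TAATTA is made of A and T alone, and GC content was not matched within that range. The part of AT content in the difference was not tested. The other patterns were near their shares over all promoters or below, with TEAD in 15.8% of OR promoters against 12.8%, EBF in 5.85% against 9.28%, AP-1 in 2.92% against 3.97% and CTCF in 1.75% against 1.57%. The annotated models of many OR genes may lack leader exons, so an annotated start that coincides with the coding start may not be the promoter.

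Reads that are not unique in the genome can affect which peaks are called. Of all 75-base words in the OR windows, 2.92% occurred more than once in the genome, against 5.09% in like-length windows, and in coding exons the values were 3.99% and 4.90%. How the authors treated reads that align to several places is not given in the sources used here, and the part of repeated sequence in the peak counts was not tested.

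Other genes of olfaction were also looked at. Among 14 genes of odorant signalling and receptor transport, 6 had an iBRG1 peak within 5 kb, 7 an i∆HSA peak and 4 both. These are close to the shares over all protein-coding genes (44.0%, 49.1% and 30.0%) and are no result about the list. The 4 were ADCY3, the adenylyl cyclase of olfactory cilia (highest scores 3 for iBRG1 and 2 for i∆HSA), GNB1, a widely expressed G protein beta subunit (8 and 5), RIC8B, an exchange factor for the olfactory G protein (11 and 13), and SLC24A4, a calcium exchanger (2 and 3). The chromosome 11 genes CNGA4, a subunit of the olfactory cation channel, and OMP, the marker of mature olfactory neurons, had no peak of either protein.

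Of 9 regulators of OR gene choice, 7 had an iBRG1 peak, 5 an i∆HSA peak and 4 both, beside the same 44.0%, 49.1% and 30.0% of all protein-coding genes, and nothing particular to so short a list can be read from it. The 4 were KDM1A, the histone demethylase LSD1 (1 and 3), EBF2 (3 and 5), EBF3 (2 and 1) and EBF4 (0 and 3). LHX2 had no peak. Of 12 genes of heterochromatin, which are expressed in most cells, 7 had an iBRG1 peak, 9 an i∆HSA peak and 6 both, again beside 44.0%, 49.1% and 30.0%. Among the 6 were KMT5C, which methylates H4K20 (19 and 37), TRIM28, the corepressor KAP1 (13 and 15), and the heterochromatin proteins CBX1 (10 and 4), CBX3 (11 and 7) and CBX5 (5 and 17). The sixth was KMT5B (2 and 2).

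Of 15 other genes set among the chromosome 11 OR clusters, 5 had an iBRG1 peak, 4 an i∆HSA peak and 2 both, beside 44.0%, 49.1% and 30.0% of all protein-coding genes and 48.6% (iBRG1) and 45.9% (i∆HSA) of the chromosome 11 genes that are not OR genes. The genes with both were HBG2 and HBE1, with 4 iBRG1 peaks and 1 i∆HSA peak in the long models that they share, each with a highest score of 2 in either list. The OR51B5 peaks are among those iBRG1 peaks, and TRIM5 and TRIM22 were both counted through the iBRG1 peak at OR56B1. The counts of this list are therefore independent neither of each other nor of the OR counts. HBB, the adult beta-globin gene, had no peak.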

How the data were processed

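CUT&RUN was performed on 300000 SW-13 cells per sample, with nuclease digestion for 30 min on ice and 12 PCR cycles. Per the study's methods and the submitters' processing notes, the authors used Cutadapt, Bowtie2, Picard, SAMtools and MACS2 (version 2.2) and hg19, set a minimum score of 5 and discarded peaks also seen in negative controls. The lists used here hold scores down to 0 (iBRG1) and 1 (i∆HSA), and 6575 and 10440 of their peaks score 5 or more, so that minimum is not in force on their score column. The deposited values used were the authors' peak positions, peak names and score, a whole number of unstated scale, which served only to describe or filter peaks within a list. Whether replicates were pooled before calling is not stated. Duplicate removal and control subtraction can each remove sites, so an absent peak is not absent binding.

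Positions were counted from 1. A gene had a peak when at least 1 bp of a peak fell in its window, and overlapping windows were merged for densities. The 6 protein-coding entries of chromosome 11 with OR pseudogene names were left out. GC content, patterns and repeated words were read from GRCh37, in which 0 peaks ended beyond a chromosome. The OR genes, gene lists and comparisons were chosen with earlier results of these data known. Named were OR genes with a peak of both lists, those at the 10 highest-scoring OR peaks of each list, those with a start under a peak, OR51E1 and OR51E2, and, of the other lists, genes with both peaks and CNGA4, OMP and HBB. OR genes outside this rule are named to account for every peak. The sequence of 1 peak and the LHX2 pattern in i∆HSA peaks are not reported here. The counting steps were tested on simulated data. Scripts ran in Python 3.11.15 (pandas 2.3.3, numba 0.67.0, matplotlib 3.10.9, scipy 1.17.1, pysam 0.24.0, numpy 2.4.6).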

Additional observations from a re-analysis of the deposited data

How the results depend on the processing

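No paired analysis was possible because the files carry no value per replicate, and for the same reason no replicate could be left out. Of 54 alternative values, 31 stayed within the 95% interval of the value in the report and 23 did not. Windows were changed first. With the gene body only, the OR share was 4.09% for iBRG1 and 1.17% for i∆HSA, against 18.4% and 14.8% of like-length genes. With 1 kb on each side the OR shares were 5.26% and 1.17%. With 10 kb the like-length shares were 40.0% and 37.1%. With 5 kb around the start alone, an alternative chosen after seeing the data, the OR share of iBRG1 was 7.60% and the like-length shares were both 19.7%. With like length widened to the whole range of OR gene lengths, 45.8% and 44.2% of the other genes had a peak. Among peaks scoring 5 or more, the OR shares were 2.92% and 1.17% and the like-length shares both 11.7%. The OR densities of such peaks were 1.65 and 0.823 per Mb. Of such iBRG1 OR peaks, 1 of 4 (25.0%) was overlapped by such an i∆HSA peak, which is the same single overlap at OR10S1. Reciprocal overlap of 50% left 0% shared in both lists. Without the OR6X1 to OR8A1 cluster, again chosen after seeing the data, the i∆HSA share was 0.671%. In these alternatives the OR share was below the like-length share in both lists wherever both were computed. Leaving out peaks under 25% GC, asking for the peak midpoint in the window, or leaving out windows with other protein-coding genes left each share within that interval. The unknown depth limits how far absent peaks can be read.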
